A study of Mus musculus with 6 samples.

Results

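The SIBLING genes (small integrin-binding ligand, N-linked glycoproteins) encode acidic phosphoproteins of mineralized matrix, and their transcripts were compared between Stat3-deficient and control embryonic bone together with the transcript of Fam20c, the Golgi kinase that phosphorylates these proteins as they are secreted. The genes were taken by symbol as Ibsp, Spp1, Dmp1, Mepe and Fam20c, which gave 5 of the 23930 amplicons measured. Stat3 KO stands for 3 samples of humerus shaft from E16.5 mouse embryos with the genotype Prrx1Cre; Stat3C/C, in which a Cre driver of limb bud mesenchyme acts on both conditional alleles of the transcription factor gene Stat3. Control stands for 3 samples of the same bone and age with the genotype Stat3C/+, which carry 1 conditional allele and no driver and are also labelled wild type. The presence of Cre and the loss of Stat3 therefore cannot be told apart. Prrx1Cre acts in cells of mesenchymal origin such as osteoblasts, chondrocytes and tendon cells, so blood-derived osteoclasts and macrophages in the same tissue are not its direct targets. Whether each replicate came from an embryo or a litter of its own is not stated, so every p-value here describes the scatter among these 6 libraries, part of which may be technical.

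The SIBLING proteins share an RGD sequence that binds integrins and long stretches of acidic and phosphorylated residues that bind calcium and hydroxyapatite. Bone sialoprotein, encoded by Ibsp, promotes the start of mineral deposition, whereas osteopontin, encoded by Spp1, restrains crystal growth and serves in the attachment of osteoclasts. Dentin matrix protein 1, encoded by Dmp1, and the matrix extracellular phosphoglycoprotein, encoded by Mepe, are products of late osteoblasts and osteocytes and act on mineralization and on phosphate balance. A further member of the family, Dspp, is chiefly a dentin gene.

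In Stat3 KO bone, Ibsp stood at 48.5% of the control mean, Spp1 at 83.2% and Dmp1 at 79.7%. Mepe was close to undetected, and Fam20c stood at 147% of the control mean. Libraries held 9126493 to 13376550 reads, and each gene was read at 1 amplicon, a short amplified stretch of its transcript. Values are in RPM, the reads of an amplicon per 1000000 reads of its library, where 1 read was worth 0.0748 to 0.110 RPM. Amplicons differ in how well they amplify, so RPM values are compared between libraries for the same gene and not between genes. The 12846 amplicons that averaged 1 RPM or more were tested with limma on log2(RPM + 1), and a gene is called higher or lower where its Benjamini-Hochberg adjusted p was under 0.05. Ibsp, Spp1 and Dmp1 were called lower in Stat3 KO and Fam20c was called higher, while Mepe lay below the level set for the test and is described from its reads. Over all genes tested, 16.7% were called, 11.0% lower and 5.71% higher. In 3 of the 4 tested genes the Stat3 KO and control libraries did not overlap, as in 33.8% of all genes tested, and all 3 were lower, a direction without overlap that 21.9% of all genes tested showed. Genes with higher levels made up 34.2% of all calls under the deposited scaling and 52.9% under TMM factors, which moved the median log2 fold change of all genes to -0.01, against -0.06. The Stat3 amplicon itself read 208, 201 and 170 RPM in Stat3 KO and 211, 201 and 211 RPM in controls, which did not pass the test (log2 fold change -0.11 ± 0.08 (SE), limma adjusted p = 0.380). No source used here places this amplicon relative to the deleted exons, and its level is therefore no check of the genotypes.

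The SIBLING genes lie side by side on chromosome 5 in the order Dspp, Dmp1, Ibsp, Mepe, Spp1, within 270.3 kb (GRCm38, GENCODE M21, 104170712 to 104441050), all on the plus strand. The genes span 104202613 to 104214102 for Dmp1, 104299171 to 104311469 for Ibsp, 104325329 to 104338611 for Mepe and 104435118 to 104441050 for Spp1. Fam20c is on the same chromosome, 34.3 Mb away (138754514 to 138810077). These are positions of the genes, since the places of the amplicons within exons, and the build behind the deposited table, are not stated. Start-site windows from RefSeq (GRCm38.p6, 250 bases before to 50 after the start site) were at hand for all 5 genes, and those of the 4 SIBLING genes are shown because they share an arrangement of sequence. Each of the 4 held ATTGG, which is a CCAAT box read on the other strand, followed by TTTANA with exactly 21 bases between them. This TTTANA began 31, 28 and 20 bases before the start site in Dmp1, Ibsp and Spp1. In Mepe it began 6 bases after the start site, so the place of the pair was not shared by all 4. Capitals mark these pairs of motifs.
Dmp1, chr5:104202367-104202666, plus strand: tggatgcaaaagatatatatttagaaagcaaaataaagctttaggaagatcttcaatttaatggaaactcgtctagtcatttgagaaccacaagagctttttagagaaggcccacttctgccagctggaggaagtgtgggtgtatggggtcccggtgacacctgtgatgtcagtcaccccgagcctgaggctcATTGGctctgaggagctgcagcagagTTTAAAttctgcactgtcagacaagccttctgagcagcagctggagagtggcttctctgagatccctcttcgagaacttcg
Ibsp, chr5:104299037-104299336, plus strand: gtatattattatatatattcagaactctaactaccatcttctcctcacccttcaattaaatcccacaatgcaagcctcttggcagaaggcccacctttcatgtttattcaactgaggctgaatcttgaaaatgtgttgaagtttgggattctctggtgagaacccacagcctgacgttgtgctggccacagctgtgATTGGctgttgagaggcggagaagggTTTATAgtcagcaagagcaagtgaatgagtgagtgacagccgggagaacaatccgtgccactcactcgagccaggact
Mepe, chr5:104325079-104325378, plus strand: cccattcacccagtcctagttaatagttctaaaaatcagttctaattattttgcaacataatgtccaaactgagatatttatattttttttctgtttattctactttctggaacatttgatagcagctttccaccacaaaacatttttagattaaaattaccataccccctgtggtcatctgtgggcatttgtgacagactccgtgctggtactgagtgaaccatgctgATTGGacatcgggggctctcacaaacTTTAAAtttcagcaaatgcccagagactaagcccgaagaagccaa
Spp1, chr5:104434861-104435160, plus strand: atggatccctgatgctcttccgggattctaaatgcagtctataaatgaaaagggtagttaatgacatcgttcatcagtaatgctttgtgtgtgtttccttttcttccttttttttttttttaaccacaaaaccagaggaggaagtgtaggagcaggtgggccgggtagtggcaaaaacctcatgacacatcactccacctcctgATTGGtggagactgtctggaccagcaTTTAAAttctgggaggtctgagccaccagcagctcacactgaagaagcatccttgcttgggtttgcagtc
Where Dmp1 and Spp1 had 2 windows in the RefSeq table, the window nearest to the GENCODE gene start is shown. Searched on both strands, CCAAT was in 37.4% and TTTANA in 38.8% of the 32851 windows of the table, and TTTAAA counts on both strands at 1 place. In the order and spacing shown, 22 windows (0.0670%), the 4 shown included, held this pair at 21 bases, and 310 (0.944%) held it with 20 to 50 bases between. The arrangement was noticed in these sequences before it was counted, and a match of letters is a description and no evidence of a bound site. The start-site window of Fam20c held CCAAT on the plus strand and no TTTANA on either strand. Its RefSeq start site lay 567 bases after the GENCODE gene start, which the window therefore did not cover. For Ibsp the RefSeq start site lay 116 bases after the GENCODE gene start. TGNGGT, the core of sites for the osteoblast factor RUNX2, occurred on either strand in the windows of Spp1, Dmp1 and Mepe, with 2 matches each, and not in those of Ibsp and Fam20c, whereas 45.8% of all windows held it. The STAT half-site pair TTCNNNGAA was in none of the 5 windows and in 8.30% of all windows.

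Ibsp showed the largest fall of the 4 genes tested. It was read at 2039, 2083 and 2170 RPM in Stat3 KO, against 4094, 4691 and 4198 RPM in controls. All 3 Stat3 KO libraries lay below every control library, with 1924 RPM between the groups. Means were 2097 ± 66.9 RPM in Stat3 KO and 4328 ± 319 RPM in controls (SD, n = 3 each), and the log2 fold change was -1.04 ± 0.07 (SE, limma adjusted p = 4.00e-10). These values rest on 19007 to 24077 reads in Stat3 KO libraries and 47662 to 62747 reads in control libraries, which puts the counting error of a library at 0.399% to 0.725%. Replicates spread more widely than that, with a coefficient of variation of 3.19% in Stat3 KO and 7.36% in controls. Of the 12846 genes tested, 32 had a lower log2 fold change than Ibsp. Among the 95 genes with a mean of at least 1000 RPM, Ibsp was the only amplicon at least 2-fold lower in Stat3 KO under the deposited scaling. The next, the endoplasmic reticulum chaperone gene Calr, named after its values were seen, was at -0.44 on the log2 scale. Ibsp itself fell just short of 2-fold with TMM factors (-0.986), median-of-ratios factors (-0.980), edgeR (-0.989) and DESeq2 (-0.982). The same held for edgeR and DESeq2 without a filter (-0.997 and -0.985) and on leaving out control replicate 2 (-0.983). Ibsp was called lower under each of the 21 alternatives run, with log2 fold changes of -1.13 to -0.98.

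**Figure D1:**
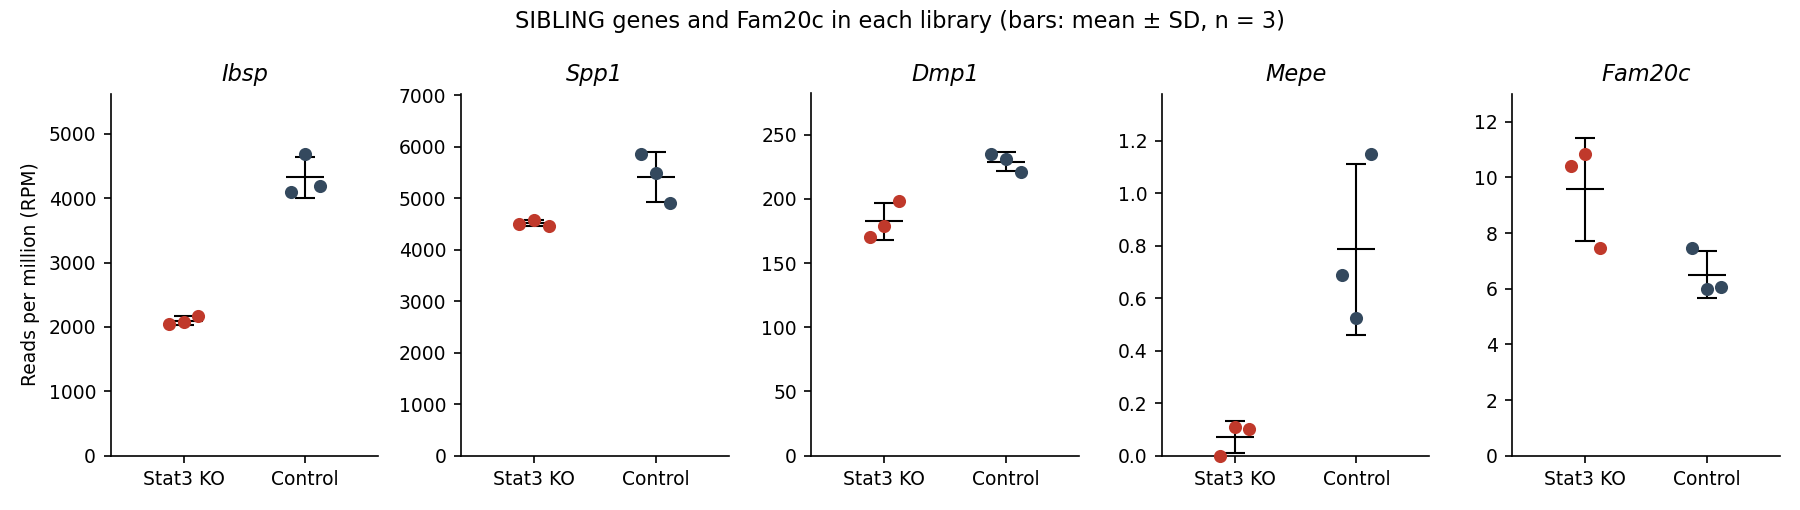
RPM values of Ibsp, Spp1, Dmp1, Mepe and Fam20c in each library, with 3 Stat3 KO libraries left of 3 control libraries in each panel; points are libraries, bars give the mean and SD, and each vertical axis starts at 0. Stat3 KO and control libraries are apart for Ibsp, Spp1, Dmp1 and Mepe, while 1 Stat3 KO library of Fam20c sits at the level of a control library.

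Spp1 was lower by a smaller step. Its values were 4505, 4569 and 4452 RPM in Stat3 KO and 5859, 5491 and 4901 RPM in controls. The groups did not overlap, but the lowest control library was only 332 RPM above the highest Stat3 KO library. Stat3 KO libraries were closely alike (4509 ± 58.5 RPM) and controls more widely spread (5417 ± 484 RPM, SD, n = 3 each). The log2 fold change was -0.26 ± 0.07 (SE, limma adjusted p = 0.0182), and 2717 of the tested genes had a lower one. This call depended on the scaling and on single libraries: the adjusted p was 0.0697 with TMM factors, 0.0805 with median-of-ratios factors and 0.0600 with DESeq2, and it was 0.101 without control replicate 1, 0.0854 without control replicate 2 and 0.0586 without Stat3 KO replicate 2. It was also lost without the filter on low values (0.232) and in limma without a trend (0.132), while the direction was the same in all 21 alternatives.

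Dmp1, which is made by late osteoblasts and osteocytes, was also lower. It was read at 170, 179 and 199 RPM in Stat3 KO, against 235, 231 and 221 RPM in controls, and the groups were 22.3 RPM apart. Means were 183 ± 14.5 RPM in Stat3 KO and 229 ± 7.34 RPM in controls (SD, n = 3 each), with a log2 fold change of -0.33 ± 0.08 (SE, limma adjusted p = 0.00670). The call was lost in limma without a trend (adjusted p = 0.0723) and held in the other 20 alternatives.

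Mepe was scarcely read at this stage. Its amplicon had 0, 1 and 1 reads in Stat3 KO libraries and 8, 7 and 14 reads in control libraries, or 0, 0.110 and 0.102 RPM against 0.687, 0.523 and 1.15 RPM. No Stat3 KO library reached the lowest control library. A count of 0 in Stat3 KO replicate 1 allows a level of up to 0.254 RPM (3 reads), and the exact 95% Poisson upper limits were 0.312, 0.610 and 0.569 RPM in the 3 Stat3 KO libraries. The limits of replicates 2 and 3 are above the lowest control value, so single libraries are not set apart at this depth. Summed over libraries there were 2 reads of 30719645 in Stat3 KO and 29 of 37193048 in controls, a ratio of 0.0835 with an exact 95% interval of 0.00965 to 0.330 that covers counting error only. A two-sided exact permutation of the 6 libraries gave p = 0.1, the smallest that 3 against 3 can give. With no filter on low values, over 20490 amplicons of which 4.24% were called lower, the log2 fold change on log2(RPM + 1) was -0.73 ± 0.13 (SE, limma adjusted p = 0.00863). This scale understates the change of a gene at so few reads. The adjusted p stayed between 0.0181 and 0.0372 when each library was left out in turn without a filter. It was 0.00756 with edgeR, and DESeq2 gave no adjusted p.

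Fam20c, the kinase gene, was higher. It was read at 10.4, 10.8 and 7.46 RPM in Stat3 KO, against 7.47, 5.98 and 6.08 RPM in controls. Stat3 KO replicates 1 and 2 were above every control library, and Stat3 KO replicate 3 was level with control replicate 1, so the groups overlapped. These values rest on 123, 99 and 73 reads in Stat3 KO and 87, 80 and 74 reads in controls. The exact 95% Poisson intervals for the level libraries were 5.85 to 9.38 RPM for Stat3 KO replicate 3 and 5.99 to 9.22 RPM for control replicate 1, which covers counting error only. Means were 9.57 ± 1.84 RPM in Stat3 KO and 6.51 ± 0.835 RPM in controls (SD, n = 3 each), with a log2 fold change of 0.48 ± 0.16 (SE, limma adjusted p = 0.0463). Permuting the libraries exactly gave a two-sided p of 0.2. The call was lost on leaving out any library except Stat3 KO replicate 3, with adjusted p-values of 0.0501 to 0.181 for those 5, and was lost without the filter (0.153) and without a trend (0.0781).

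**Figure D2:**
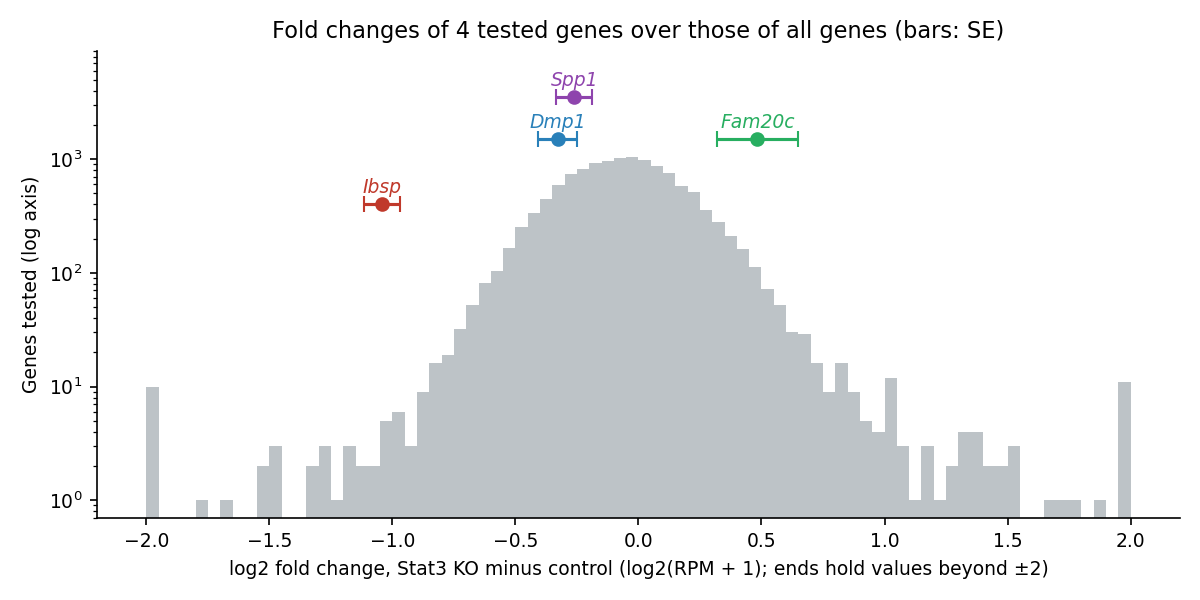
Distribution of log2 fold changes, Stat3 KO minus control, over the 12846 genes tested (grey, number of genes on a log axis), with the values and standard errors of the 4 tested genes drawn above it. Ibsp at -1.04 stands in the lower tail, where 32 genes are lower, while Spp1 at -0.26 and Dmp1 at -0.33 are on the lower shoulder and Fam20c at 0.48 is on the upper side.

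The 4 SIBLING amplicons together took 0.671%, 0.683% and 0.682% of all reads in Stat3 KO libraries and 1.02%, 1.04% and 0.932% in control libraries. The sum averaged 6789 ± 64.5 RPM in Stat3 KO and 9975 ± 577 RPM in controls (SD, n = 3 each). In reads, Ibsp made up 70.0% of that difference, Spp1 28.5% and Dmp1 1.46%. These shares depend on how well each amplicon amplifies and are not shares of transcripts. Ibsp gave 30.4% to 31.8% of the 4 genes' reads in Stat3 KO libraries and 40.2% to 45.0% in control libraries.

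Ratios taken within a library do not depend on how libraries are scaled to each other. The Ibsp to Spp1 ratio of RPM values was 0.453, 0.456 and 0.487 in Stat3 KO and 0.699, 0.854 and 0.857 in controls, so every Stat3 KO library lay below every control library. On the log2 scale the ratio averaged -1.10 ± 0.06 in Stat3 KO and -0.32 ± 0.17 in controls, a difference of -0.78. The Ibsp to Dmp1 ratio was also lower without overlap, with log2 values of 3.52 ± 0.07 in Stat3 KO and 4.23 ± 0.11 in controls (SD, n = 3 each). These ratios were taken on log2(RPM + 1), which bears on pairs with Mepe. The Spp1 to Dmp1 ratio overlapped between the groups, at 4.62 ± 0.13 in Stat3 KO and 4.55 ± 0.08 in controls (exact two-sided permutation p = 0.4). In all, 10 pairs of the 5 genes were compared and 8 ratios did not overlap on the log2(RPM + 1) scale. The pairs share genes and so are not separate results. The share of such ratios over all pairs of genes was not computed, and 33.8% of single genes tested did not overlap. Each of these 8 had an exact permutation p of 0.1, the smallest possible, and 0.125 after adjustment over the 10 pairs, so no pair could be called. The other ratio that overlapped was Ibsp to Mepe (exact permutation p = 0.3), and that overlap rests on the added 1 RPM. The plain RPM ratio was 18933 and 21276 in Stat3 KO replicates 2 and 3, against 5960, 8969 and 3650 in controls. Those 2 values rest on 1 Mepe read each, and the ratio is undefined in Stat3 KO replicate 1, where Mepe had 0 reads.

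**Figure D3:**
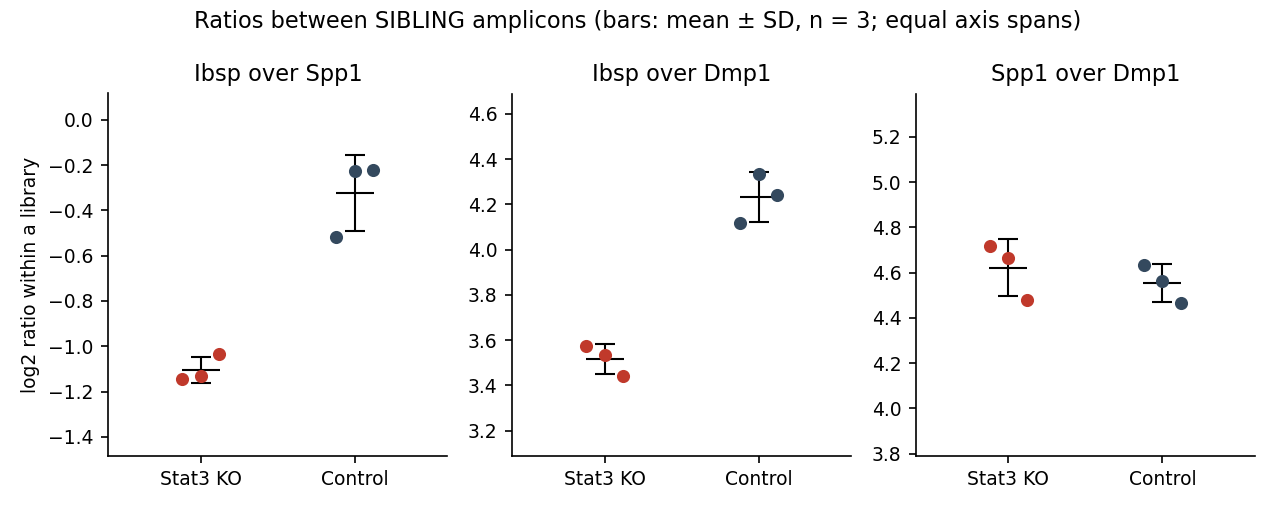
Log2 ratios between SIBLING amplicons within each library, Stat3 KO left of control; points are libraries, bars give the mean and SD of 3 libraries, and the 3 vertical axes cover equal spans. Ibsp is lower relative to both Spp1 and Dmp1 in all 3 Stat3 KO libraries, whereas the Spp1 to Dmp1 ratio overlaps between the groups.

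The genes that flank the SIBLING cluster were set beside it in chromosomal order. Before Dspp, the matrix protein gene Sparcl1 was at 147 ± 8.60 RPM in Stat3 KO and 153 ± 5.58 RPM in controls (SD, n = 3 each), and it did not pass the test (log2 fold change -0.06, limma adjusted p = 0.670). Nudt9, with a log2 fold change of 0.24, and Hsd17b11, with 0.08, did not pass either. After Spp1, the polycystin gene Pkd2 had a log2 fold change of 0.30 (limma adjusted p = 0.0983) and the next gene, BC005561, was called lower at -0.67 (adjusted p = 0.0191) with 1.77 ± 0.0877 RPM in Stat3 KO and 3.41 ± 0.130 RPM in controls. Abcg3 was at -0.13 and did not pass. Thus 1 of the 6 flanking genes tested was called lower, against 11.0% of all genes. Within the cluster, Dspp had at most 1 read in any library.

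**Figure D4:**
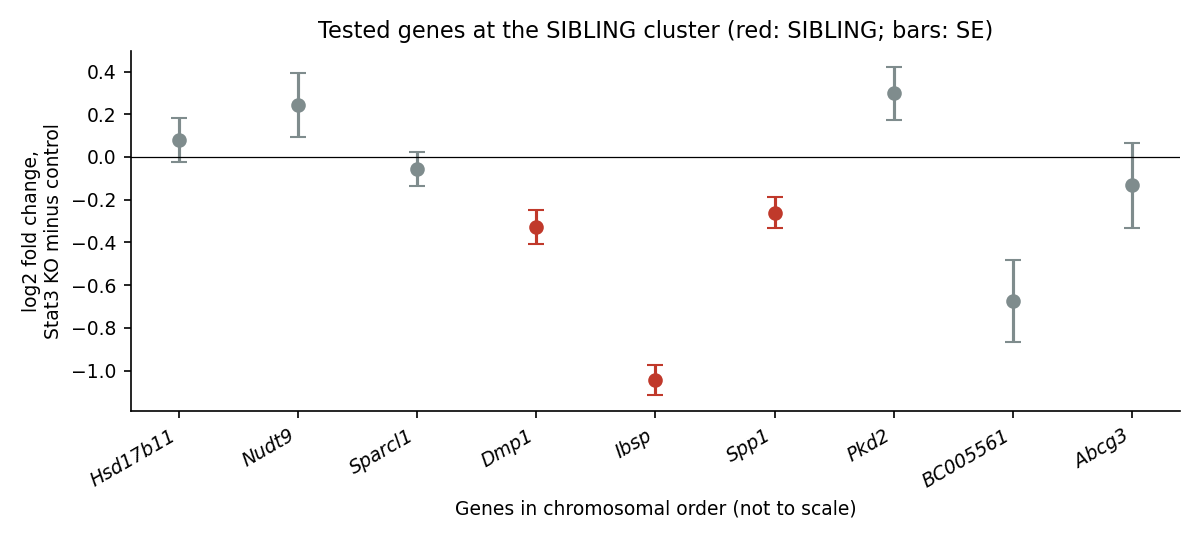
Log2 fold change, Stat3 KO minus control, with its standard error, for the tested genes at the SIBLING cluster in chromosomal order (not to scale); SIBLING genes are red and flanking genes grey. The genes next to the cluster on either side, Sparcl1 and Pkd2, are at -0.06 and 0.30, while Dmp1, Ibsp and Spp1 are below 0.

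Wider relatives of the SIBLING genes were also listed, namely enamel genes of the secretory calcium-binding phosphoprotein family, with Sparc and Sparcl1. Of 4 tested, 1 was lower and 0 were higher, where 11.0% of all genes were lower and 5.71% higher. Sparc is counted again among the bone matrix genes, and Sparcl1 is also a flanking gene. The lower one was Amtn, which encodes amelotin, an enamel protein, at 8.59 ± 0.355 RPM in Stat3 KO and 12.5 ± 2.80 RPM in controls (SD, n = 3 each; log2 fold change -0.48, limma adjusted p = 0.0364), and this call was kept in only 8 of 21 alternatives, not with TMM factors. Sparc, which encodes the abundant bone protein osteonectin, was at 6575 ± 267 RPM in Stat3 KO and 6235 ± 139 RPM in controls and did not pass (log2 fold change 0.08). Ambn, at 0.14, did not pass, and Enam, Odam and Amelx lay below the level tested. Among Fam20c's relatives and other secretory-pathway kinases, 1 of 7 was higher and 0 were lower, the 1 being Fam20c itself, with the limits given above, beside 5.71% of all genes. Fam20a, a pseudokinase that assists Fam20c, was at 14.9 ± 2.89 RPM in Stat3 KO and 11.5 ± 3.12 RPM in controls (log2 fold change 0.36, limma adjusted p = 0.138). Fam20b, a xylose kinase of proteoglycan synthesis, was at 0.14 on the log2 scale (adjusted p = 0.437). Fam198b at 0.06, Fam198a at -0.04, Fjx1 at -0.10 and Pkdcc at -0.16 did not pass either.

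Proteases that cut or activate the SIBLING proteins and matrix collagen, listed together with the processing enhancer Pcolce, moved in both directions. In this list 4 of 12 tested were lower and 2 higher, beside 11.0% lower and 5.71% higher over all genes. The median log2 fold change was -0.14, beside -0.06 over all genes. Pcolce, an enhancer of procollagen processing by Bmp1, was at 286 ± 13.0 RPM in Stat3 KO and 462 ± 46.4 RPM in controls (SD, n = 3 each; log2 fold change -0.68, limma adjusted p = 4.23e-06). Phex, the endopeptidase that degrades the mineral-binding peptides of Mepe and osteopontin, was at 94.0 ± 3.94 RPM in Stat3 KO and 130 ± 12.7 RPM in controls (-0.46, adjusted p = 0.00112). Bmp1, which cleaves dentin matrix protein 1, was at -0.28, a call kept in 9 of 21 alternatives and lost with TMM factors, and the collagenase gene Mmp13 was at -0.39. The higher members were the gelatinase gene Mmp9, at 0.71, and the proprotein convertase gene Pcsk5, at 0.30, which was called in 15 of 21 alternatives. Phex, Pcolce, Mmp13 and Mmp9 were called in all 21. Mmp7 had 0 reads in every library. For the integrin and CD44 receptors of these proteins, 1 of 11 was higher and 0 were lower, with a median of -0.06, so the higher share is near the 5.71% of all genes. The one called was Itga8, an integrin subunit that binds osteopontin, at 65.1 ± 6.02 RPM in Stat3 KO and 51.2 ± 0.947 RPM in controls (log2 fold change 0.34, limma adjusted p = 0.0175), and 16 of 21 alternatives kept this call. Receptor calls depended on scaling, with 3 of 11 higher under TMM factors, where 1044 of all 12846 genes were higher. Itgav, the shared alpha subunit of the vitronectin receptors, was at 0.24 (adjusted p = 0.0547) and Cd44 at 0.21 (adjusted p = 0.110).

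Transcription factors of the osteoblast lineage were lower in 3 of 14 tested and higher in 0, with a median log2 fold change of -0.15, beside 11.0% lower, 5.71% higher and a median of -0.06 over all genes. Runx2, the factor that starts the osteoblast programme and acts on several SIBLING genes, was at 49.9 ± 4.29 RPM in Stat3 KO and 77.1 ± 2.22 RPM in controls (SD, n = 3 each; -0.62, limma adjusted p = 8.84e-05). Sp7, which acts after Runx2, was at 7.66 ± 1.35 RPM in Stat3 KO and 13.6 ± 2.46 RPM in controls (-0.75, adjusted p = 0.00248). Mef2c, a factor of hypertrophic chondrocytes, osteocytes and muscle, was at -0.87 (adjusted p = 5.80e-04). Runx2 and Sp7 were called in all 21 alternatives and Mef2c in 19. Dlx6, at -0.34, and Ets1, at 0.17, did not pass.

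Genes of mineralization other than the SIBLING genes were split, with 2 of 9 tested lower and 2 higher, beside 11.0% lower and 5.71% higher over all genes. Smpd3, a sphingomyelin phosphodiesterase needed for mineral deposition, was at 30.5 ± 3.07 RPM in Stat3 KO and 60.2 ± 2.30 RPM in controls (log2 fold change -0.96, limma adjusted p = 8.69e-07), and Alpl, the alkaline phosphatase, was at 143 ± 11.2 RPM in Stat3 KO and 203 ± 9.06 RPM in controls (-0.50, adjusted p = 2.24e-04; SD, n = 3 each). Ank, which serves in the export of pyrophosphate, an inhibitor of mineral growth, was higher at 0.41, and the phosphate transporter gene Slc20a1 was higher at 0.30. Smpd3, Alpl and Ank were called in all 21 alternatives and Slc20a1 in 17. Of 17 other bone matrix genes tested, 2 were lower and 1 was higher, with a median of -0.06. These shares are near the 11.0% lower and 5.71% higher of all genes, and the median is that of all genes. The small proteoglycan genes Bgn, at -0.29, and Lum, at -0.31, were the lower ones, called in 16 and 12 of 21 alternatives, and Chad, a cartilage matrix gene, was higher at 0.48 and called in all 21. With TMM factors 1 of these 17 genes was lower and 3 were higher, beside 928 lower and 1044 higher of all 12846 genes.

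**Figure D5:**
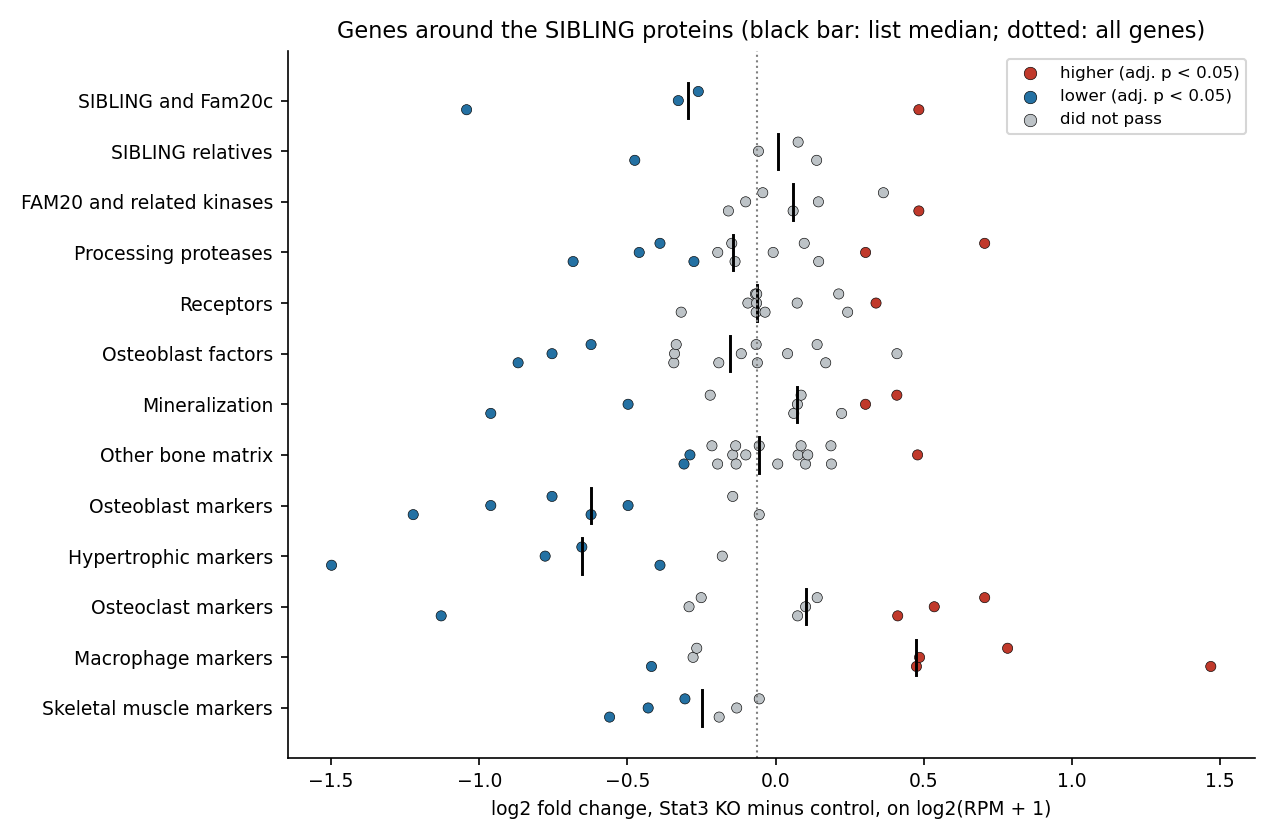
Log2 fold change, Stat3 KO minus control, of each tested gene in the lists around the SIBLING proteins, coloured by its limma call at an adjusted p of 0.05; the black bar is the median of a list and the dotted line the median of all genes (-0.06). Osteoblast and hypertrophic chondrocyte markers lie to the left with medians of -0.62 and -0.65, while the 7 macrophage markers lie on both sides, 4 of them higher, with a median of 0.48. Lists share members, so some genes are drawn in more than 1 row.

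In bulk tissue, fewer cells of a type and less RNA per cell cannot be told apart, so the markers of the cells that make SIBLING transcripts are set beside the SIBLING values. Over all genes, 11.0% were lower and 5.71% higher. Of 7 osteoblast markers, 5 were lower and 0 higher, and their summed level overlapped between the groups, at 34145 to 38632 RPM in Stat3 KO and 36722 to 41472 RPM in controls. Among the lower ones, Runx2, Sp7, Alpl and Smpd3 were already counted in the lists of osteoblast factors and mineralization, and Pth1r was not. Col1a1 and Col1a2, the collagen I genes that supply nearly all of this sum, did not pass (log2 fold changes -0.06 and -0.14). Col1a1 is outside the rule for naming genes and was added after its values were seen. Within a library, Ibsp was set against each of the 7 markers. Its ratio was lower without overlap against Col1a1 (by 0.99 on the log2 scale), Col1a2 (by 0.90), Alpl (by 0.54) and Runx2 (by 0.42). It overlapped against Smpd3 (difference -0.08), Sp7 (-0.29) and the parathyroid hormone receptor gene Pth1r (0.18). The share of such ratios over all genes was not computed. Against genes that changed little, such as Col1a1 and Col1a2, the ratio largely repeats the fall of Ibsp itself. Pth1r itself was at 25.8 ± 4.98 RPM in Stat3 KO and 61.2 ± 7.81 RPM in controls (SD, n = 3 each).

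Hypertrophic chondrocytes also make bone sialoprotein and osteopontin. Of their 5 tested markers 4 were lower and 0 higher. Over all genes 11.0% were lower and 5.71% higher, shares that also stand beside the counts of the lists that follow. The summed level of all 6 hypertrophic markers was 661 to 726 RPM in Stat3 KO and 976 to 1001 RPM in controls. Mmp13, also counted among the proteases, supplied most of this sum. Ihh lay below the level tested and overlapped between the groups, at 0.689 ± 0.296 RPM in Stat3 KO and 1.08 ± 0.362 RPM in controls. The channel gene Panx3 was at 44.6 ± 5.16 RPM in Stat3 KO and 127 ± 9.42 RPM in controls (SD, n = 3 each; log2 fold change -1.50, limma adjusted p = 1.53e-10), whereas Col10a1, the defining collagen of this zone, was at -0.18 and did not pass (adjusted p = 0.176). Other chondrocyte markers were lower in 5 of 7 tested, with a sum of 281 to 316 RPM in Stat3 KO and 380 to 384 RPM in controls. With TMM factors 3 of the 7 were lower, beside 928 of all 12846 genes. Osteoclasts and macrophages are a further source of osteopontin, and their markers moved in both directions. Osteoclast markers summed to 1088 to 1111 RPM in Stat3 KO and 768 to 830 RPM in controls, with 3 of 9 higher and 1 lower, and Mmp9 supplied most of the sum. The lower one, the calcitonin receptor gene Calcr, had the largest change of the list, at -1.13 (limma adjusted p = 5.26e-04), and was called in all 20 alternatives that tested it. Acp5 at 0.14 and Ctsk at 0.07 did not pass. Macrophage markers summed to 483 to 522 RPM in Stat3 KO and 384 to 407 RPM in controls, with 4 of 7 tested higher and 1, the receptor gene Csf1r at -0.42, lower. Lyz2, at 230 ± 6.91 RPM in Stat3 KO and 134 ± 14.5 RPM in controls, supplied most of the difference between these sums. C1qb at -0.28 and Mrc1 at -0.27 did not pass, and the median of this list, 0.48, turned to -0.27 over the 5 markers left with the filter at 10 RPM. Skeletal muscle markers, a sign of adherent tissue, summed to 6604 to 7137 RPM in Stat3 KO and 7796 to 8207 RPM in controls, with 3 of 6 lower and 0 higher. None of these markers was at 0 in every library. The part of each cell type in the SIBLING values was not tested.

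The genes whose pattern over the 6 libraries was most like that of Ibsp, by Pearson's r on log2(RPM + 1) among the 9017 other amplicons that averaged 10 RPM or more, were Dennd4a (r = 0.999), Fads1 (0.998) and Tmbim4 (0.998). Their own changes were smaller, at -0.42, -0.26 and -0.49 on the log2 scale. The 3 most like Spp1 were Lrrc41 (r = 0.999), Ero1l (0.998) and Pfkm (0.997), of which Ero1l, at -0.43, was called lower and the other two were not called. The 6 libraries fall into 2 genotypes, which these correlations share, and 283 amplicons had an r above 0.95 with Ibsp and 193 with Spp1.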

How the data were processed

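RNA from 6 samples of mouse humerus shaft was extracted with Trizol and made into Ion AmpliSeq libraries, which hold 1 amplicon per gene, per the labels' protocols. The authors deposited RPM values, reads per amplicon scaled to 1000000 per library. Which aligner, counter and genome build they used is not stated. All values above 0 (100%) were whole multiples of 1 step per column within 0.1 read, so reads were recovered and gave 9126493 to 13376550 per library. Intervals from reads cover counting error only, since the reads carry no molecular identifiers and so do not count separate molecules. Replicates were no duplicates of each other, as chi-square over degrees of freedom was 4.33 to 7.38 between libraries of a group.

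Genotype groups were compared with limma 3.58.1 (R 4.3.3) on log2(RPM + 1), with a variance trend, for the 12846 amplicons that averaged 1 RPM or more. P-values were two-sided and adjusted by Benjamini-Hochberg over all of them, with a threshold of 0.05. Alternatives were other pseudocounts, filters, scalings and variance models, the replicate block, leaving out each library, and edgeR 4.0.16 and DESeq2 1.42.0 on recovered reads, which called 1052 and 998 genes higher and 922 and 775 lower. The fits were tested on simulated data with known changes. The 5 genes and the gene lists were chosen with earlier results of these data known. Named list members are up to 6 per list with the smallest p, unless stated. Bglap, Bglap2 and Phospho1 were not analysed here, and 1 gene of the osteoblast factor list is not reported here. Figures were drawn with matplotlib 3.10.9.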

Additional observations from a re-analysis of the deposited data

How the results depend on the processing

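The fall of Ibsp kept its direction and its call under all 21 alternatives, and its log2 fold change was -1.08 to -0.98 when each library was left out. No result for the 5 genes reversed. Spp1 was past the threshold in 13 of 21 alternatives and Fam20c in 13 of 20, and for Dmp1 20 of 21 held. Spp1 was no longer called without a filter on low values (-0.26), without a trend (-0.26), with TMM factors (-0.20), with median-of-ratios factors (-0.20) or with DESeq2 (-0.20), and ranged from -0.33 to -0.20 when each library was left out. Dmp1 was no longer called without a trend (-0.33). Fam20c was no longer called without a filter (0.48) or without a trend (0.48), and ranged from 0.39 to 0.64 when each library was left out. Mepe passed without a filter with limma (-0.73), also with a pseudocount of 0.1 RPM (-2.39) or 10 RPM (-0.10), with TMM factors (-0.71) or with the replicate block (-0.73), and with edgeR (-3.33); these and its ranges (-0.83 to -0.58 on leaving out a library: -0.68, -0.75 and -0.75 without Stat3 KO replicates 1, 2 and 3 and -0.76 without control replicate 1) were chosen after seeing the data, except the limma fit without a filter. DESeq2 without a filter gave -3.51 and no adjusted p. The cause of these changes was not tested.

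Over all genes, calls in the higher direction numbered 733, and 361 without a trend, and ranged from 444 to 705 when each library was left out. Calls in the lower direction numbered 1409. They were 869 without a filter, 928 with TMM factors, 881 with median-of-ratios factors, 877 with quantile normalization, 634 without a trend, 922 with edgeR, and 775 with DESeq2 (742 without a filter), and ranged from 729 to 1314 when each library was left out. Counts moved by over 1.5 times without control replicate 2 (444 and 729), control replicate 1 (483 and 746) and Stat3 KO replicate 2 (465 and 857). With the replicate number as a block there were 836 higher and 1626 lower calls, and no call among the 5 genes changed. No called gene of the lists changed direction in any alternative. Deviations from the group means of same-numbered libraries had correlations of 0.0126, -0.0193 and 0.107, so the numbers are not taken to pair the samples. Fam20c, with a mean under 10 RPM, gave no value with the filter at 10 RPM, and Mepe gave none under alternatives that keep the filter. Depth limits Mepe, whose values rest on 0 to 14 reads per library, and Fam20c, with 73 to 123.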

Other observations

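Fgf23, the phosphate-regulating hormone gene of osteocytes, whose protein is phosphorylated by the Fam20c kinase, was read at 1.35, 1.10 and 1.02 RPM in Stat3 KO (16, 10 and 10 reads) and at 0.601, 0.523 and 0.821 RPM in controls (7, 7 and 10 reads). The Stat3 KO libraries were all above the controls, but the gene lay below the level tested, with adjusted p-values of 0.141 for limma and 0.337 for edgeR when no filter was used, and it was singled out after its values were seen. In the osteocyte list, which left out Dmp1 and Mepe, 2 of 7 tested genes were higher and 1 lower, beside 5.71% higher and 11.0% lower over all genes. The higher ones were Hyou1, an endoplasmic reticulum chaperone gene, at 63.2 ± 5.80 RPM in Stat3 KO and 39.3 ± 0.137 RPM in controls (SD, n = 3 each; log2 fold change 0.67, limma adjusted p = 6.77e-05), and Capg, at 0.32, which was called in 13 of 21 alternatives. The lower one was Phex, and Sost, the Wnt antagonist gene of mature osteocytes, was at 0.45 (adjusted p = 0.0555).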
